A study of Drosophila melanogaster with 3 samples.

Results

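Of 5164 peaks that passed the replicate comparison (irreproducible discovery rate, IDR) for the fly transcription factor Deadpan, 889 lay deep inside introns. They were chosen by position only. The summit, the base of highest signal in a peak, had to lie more than 2000 bp from the nearest start site of any gene, inside a gene body and outside every annotated exon. These 889 far intronic peaks made up 17.2% of the list, against 2864 promoter peaks (start site at most 500 bp from the summit), 693 intronic peaks 501 to 2000 bp from one, 592 intergenic and 126 exonic peaks. The closest peak inside the distance limit lay 2002 bp from a start site and ranked 4899 of the list, and the closest intronic peak outside it lay 2000 bp away.

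The peaks came from chromatin immunoprecipitation with sequencing (ChIP-seq) of whole, mixed-sex embryos of the line dpn-MiMIC-GFP, collected 0 to 24 h after egg laying. In this line an eGFP exon inserted in an intron of dpn makes a Deadpan-GFP fusion from the gene's own locus. The precipitation used an antibody to GFP, although the antibody field of the labels reads dpn, and chromatin had been sonicated to 200 to 800 bp. The 3 libraries are biological replicates of 1 group. All cell types of the embryo and all its ages are mixed in each library, the same line is used throughout, and no control library is among the samples, so no comparison between conditions can be made.

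Deadpan belongs to the Hes proteins, basic helix-loop-helix factors that repress transcription. It is known for keeping neural stem cells, the neuroblasts, in a self-renewing state, where it acts beside the Notch pathway, and for its part in counting X chromosomes in the early embryo. Hes proteins bind short DNA sites with a CACG core, such as CACGTG or CACGCG, where they recruit the corepressor Groucho. Introns of developmental genes in flies often hold enhancers, which act on a promoter from a distance and are bound by many factors.

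The sequences at 4 of the strongest far intronic peaks show how far single summits vary around the A and T content described further on. Peaks on 1 chromosome arm were left out of the choice. Each runs from 50 bp before to 50 bp after the summit, on the plus strand of genome release 6 (dm6), from the RefSeq genome. Capitals mark the 10 hexamers whose rise at the summits had the smallest p (ATTTAA or TTTAAA or AATATT or AAATAT or AAATAG or ATATTA or GTTTAA or TAAATA or ATCTTA or CTTAAA, on either strand). They lie at chrX:3742167-3742267 (Tlk), chr3L:3060738-3060838 (CG32486), chrX:2297679-2297779 (Raf) and chr3L:8458279-8458379 (Gug).
Tlk: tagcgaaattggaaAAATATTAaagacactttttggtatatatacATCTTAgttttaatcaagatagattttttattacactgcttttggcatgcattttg
CG32486: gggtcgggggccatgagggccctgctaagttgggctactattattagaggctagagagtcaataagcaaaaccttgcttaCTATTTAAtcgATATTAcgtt
Raf: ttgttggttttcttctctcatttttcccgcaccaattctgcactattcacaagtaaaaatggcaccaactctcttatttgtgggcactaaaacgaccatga
Gug: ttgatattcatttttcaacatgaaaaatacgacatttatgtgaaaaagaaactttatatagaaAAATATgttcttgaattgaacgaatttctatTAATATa
The windows from Tlk and Gug were 74.3% and 80.2% A or T, against 65.7% over all far intronic summits and 57.9% in their flanks. The window from Raf, which holds none of the 10 hexamers, was 60.4% A or T and that from CG32486 55.4%, so 1 of the 4 lay below the flanks.

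A shorter element recurred beside these summits. The octamer CACTGAGA (TCTCAGTG on the other strand) had the smallest p of all octamers, and the stretches that follow show it in capitals at the 6 strongest far intronic peaks that hold it within 100 bp of the summit, the same arm left out. They were chosen after the values of the octamer had been seen. Each reads 5′ to 3′ on the octamer's strand and starts 10 bases before it. The positions are chr3L:4230392-4230511 in ImpL2 (plus strand), chrX:21059092-21059211 in bves (plus), chr3R:11849804-11849923 in CG6959 (minus), chr2L:520739-520858 in ush (plus), chr3R:23326402-23326521 in pnt (plus) and chr2L:18325212-18325331 in Fas3 (plus).
ImpL2: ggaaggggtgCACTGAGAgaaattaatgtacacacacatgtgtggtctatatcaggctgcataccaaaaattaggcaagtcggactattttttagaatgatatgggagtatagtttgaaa
bves: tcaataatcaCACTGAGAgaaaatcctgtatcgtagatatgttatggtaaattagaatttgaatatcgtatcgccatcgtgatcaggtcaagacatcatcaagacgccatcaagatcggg
CG6959: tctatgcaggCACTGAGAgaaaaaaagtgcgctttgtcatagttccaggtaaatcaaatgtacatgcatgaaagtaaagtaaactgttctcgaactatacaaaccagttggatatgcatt
ush: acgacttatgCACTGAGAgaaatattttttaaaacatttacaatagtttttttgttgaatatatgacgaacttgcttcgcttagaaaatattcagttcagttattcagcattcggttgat
pnt: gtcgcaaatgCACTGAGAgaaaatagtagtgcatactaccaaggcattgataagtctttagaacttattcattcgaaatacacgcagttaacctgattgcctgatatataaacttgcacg
Fas3: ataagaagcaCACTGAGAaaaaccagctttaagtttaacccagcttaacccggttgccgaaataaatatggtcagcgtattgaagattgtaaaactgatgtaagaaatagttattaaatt
In all 6 the octamer runs on into a short stretch of A, and in 5 of them a G comes first. Over all 60 copies near far intronic summits a G directly followed in 56.7%, so these 6 are not typical in this. The summit lies downstream, at base 109 of the ImpL2 stretch, 62 of bves, 60 of CG6959, 75 of ush, 100 of pnt and 94 of Fas3.

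The strongest far intronic peak of the list, at rank 30, lay in Tlk, which encodes the Tousled-like kinase of chromatin assembly. Its summit was the entry of rank 35 in replicate 1, rank 24 in replicate 2 and rank 28 in replicate 3. CG32486 held the peak of rank 52 (ranks 50, 49 and 56 in replicates 1, 2 and 3) and Raf, the kinase between Ras and MEK, the peak of rank 73 (ranks 68, 85 and 71). All 3 stayed among the first 100 entries of every replicate. The following ranks fell to CG12769 at 103, to Gug at 117, which encodes the Atrophin corepressor, and to Lrch at 133, where replicate 2 placed the peak lower, at rank 293, than replicate 1 at 77 and replicate 3 at 128.

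Peaks of lower rank followed in genes of various roles. upSET held the peak of rank 178, JIL-1, a kinase of histone H3, that of rank 186, and trx, which gives the Trithorax group its name, that of rank 207. The kinase gene mnb (rank 185) and CG34417 (rank 196) lay between them. A peak of rank 225 lay in an intron of CG33158 and of aos, whose product Argos is a secreted inhibitor of the EGF receptor. The remaining 3 of the 15 were in Hr4, a nuclear receptor (rank 243), Smr, a corepressor of nuclear receptors (rank 247), and eff, a ubiquitin-conjugating enzyme (rank 249). In replicates 1, 2 and 3 the aos peak ranked 209, 386 and 159 and the Smr peak 173, 323 and 271, so replicate 2 gave both their lowest place. No base of dpn itself meets the rule, so no such peak could lie there.

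Far intronic peaks were few at the very top of the list. Among the 500 strongest peaks 37 were far intronic, which is 4.16% of the far intronic peaks, against 11.9% of the promoter peaks and 9.96% of the intronic peaks nearer to start sites. Their median rank was 2781. In each replicate's own list of 30000 entries, which also holds background regions, the far intronic share rose with rank. Of the first 500 entries it was lowest in replicate 1 and highest, 7.80%, in replicate 3, with a mean of 6.80% ± 1.11 (SD, n = 3). Entries 501 to 2000 were far intronic in 17.1% ± 0.781 and the last 10000 entries in 26.5% ± 0.295 (SD, n = 3). The step from the first to the second class, and the rise from there to the last, were larger than the spread between replicates, in 3 of 3 lists. For scale, sequence that meets the rule makes up 30.9% of the 6 chromosome arms.

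**Figure D1:**
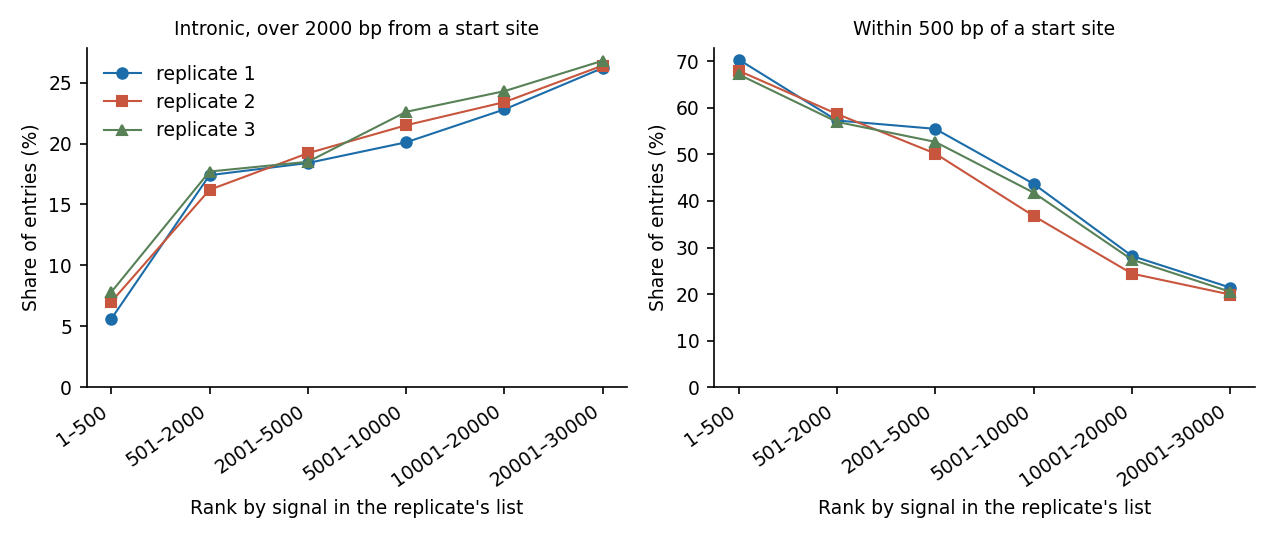
Share of entries (%) in 6 rank classes of each replicate's list, for intronic entries over 2000 bp from a start site (left) and promoter entries (right). Points are the 3 replicates. The far intronic share goes from 6.80% of the first 500 entries to 26.5% of the last class, while the promoter share falls in all 3 replicates.

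Most far intronic peaks returned in each replicate. The list was itself made from these 3 replicates, so their recovery was partly fixed in advance. The shares describe spread between replicates and are no independent test of the peaks. Taking as many of a replicate's first entries as the list has peaks, and matching summits within 150 bp, 82.7%, 83.1% and 86.3% of the far intronic peaks were found in replicates 1, 2 and 3, a mean of 84% ± 1.96 (SD, n = 3). The same share was 86.5% ± 1.05 for promoter peaks, which were found more often in 3 of 3 replicates, and 83.6% ± 3.81 for intergenic peaks (SD, n = 3), a gap smaller than the spread. In all 3 replicates 573 far intronic peaks (64.5%) were found, in 2 replicates 212, in 1 replicate 98 and in none 6. Those 6 ranked between 4618 and 5148 in the list. The replicates' own first entries, cut at the same number, held 865, 886 and 891 far intronic summits.

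The distance from the nearest start site ranged from 2002 to 49848 bp, with a median of 4984 bp. Over 10000 bp away lay 187 of the peaks (21.0%) and over 20000 bp away 46 (5.17%). The farthest was in hth, which encodes the homeodomain cofactor Homothorax, at rank 2061. Its ranks in the 3 replicates were 2785, 1705 and 2279. Nearest exons were a median of 2653 bp from the summit, and the shortest annotated intron around a summit was 14039 bp long at the median.

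Density fell with distance. Per megabase of sequence that meets the rule there were 33.9 peaks at 2000 to 5000 bp from a start site, 23.2 at 5000 to 10000 bp, 16.5 at 10000 to 20000 bp and 5.32 beyond. In the replicates' own lists the first of these densities was 32.9 ± 0.476 and the last 5.20 ± 0.417 (SD, n = 3). First introns held more peaks than later ones. A summit lay in the first intron of at least 1 transcript for 543 peaks (61.1%), although such sequence was 37.6% of what meets the rule, which gave 34.9 peaks per Mb in first introns and 13.4 in other intron sequence. The replicates' own lists gave 34.6 ± 0.377 and 13.3 ± 0.307 (SD, n = 3). First introns lie nearer to start sites, so both were counted within distance classes. At 2000 to 5000 bp first introns held 46.3 and other sequence 21.0 peaks per Mb. At 10000 to 20000 bp the densities were 23.9 and 12.9, and beyond 20000 bp 14.0 and 3.7. First introns were higher in every distance class in each of the 3 replicates.

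**Figure D2:**
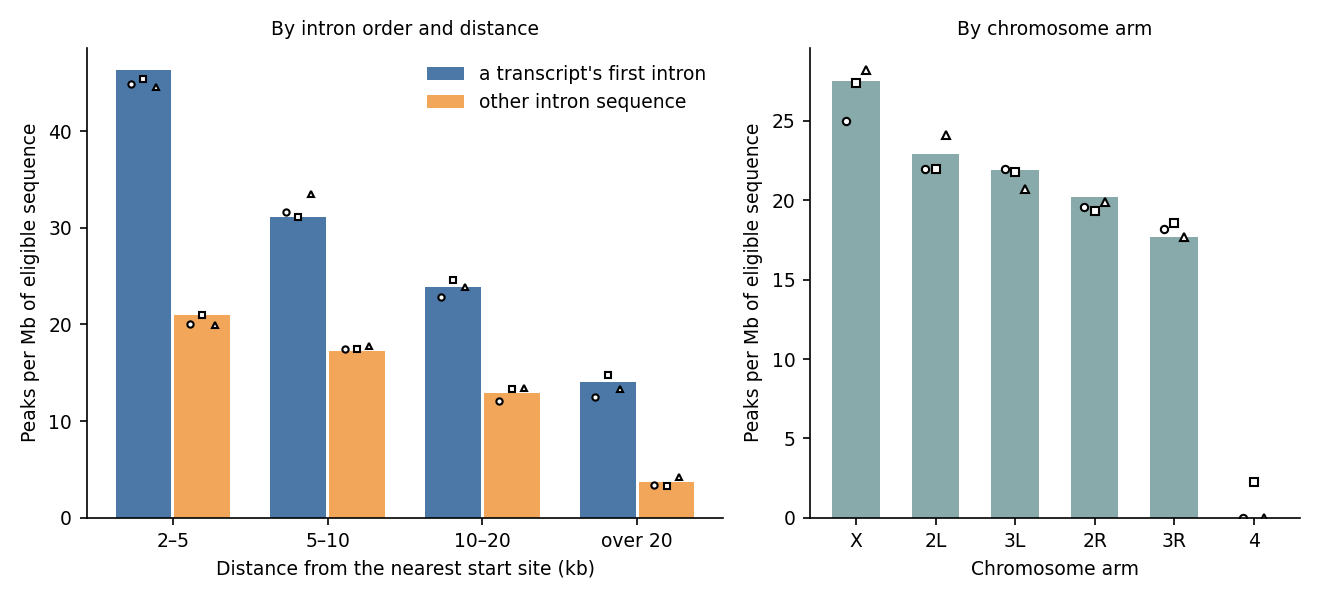
Far intronic peaks per Mb of sequence that meets the rule, by distance from the nearest start site (kb) and intron order (left) and by chromosome arm (right). Bars are the IDR-thresholded list, and white circles, squares and triangles the own first entries of replicates 1, 2 and 3. First introns stand above other intron sequence in all 4 distance classes, and X stands above the other arms.

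The very longest introns held fewer. Sequence whose shortest intron was 5000 to 10000 bp long held 29.5 peaks per Mb and 10000 to 20000 bp long 29.0, against 10 in introns over 50 kb. The sequence that meets the rule includes very large genes without any far intronic peak. Their part in the low densities of the longest introns and of the largest distances was not tested. The X chromosome had the highest density of the arms with 27.5 peaks per Mb (220 peaks), followed by 2L with 22.9, 3L with 21.9, 2R with 20.2 and 3R with 17.7. Large genes without a far intronic peak count in the autosomal values. They include Myo81F (1938 kb of such sequence) and Pzl (699 kb) on 3R, lovit (426 kb) on 3L, and CG17684 (387 kb) and DIP-lambda (375 kb) on 2R. Densities without them were not computed, so the order of the arms may depend on them. In the replicates X had 25, 27.4 and 28.2 peaks per Mb, above every other arm each time. The gap between 2L and 3L was within the replicate SD, which was 1.24 for 2L, while 2R lay below both in 3 of 3 replicates. Chromosome 4, with 0.445 Mb of such sequence, held none. Of the peaks on X 23.1% were far intronic, against 15.2% to 17.0% on the 4 large autosomal arms. No far intronic summit lay in a transposable element as NCBI annotates them, while 7.66% of the sequence that meets the rule did. Repeated sequence can escape unique alignment, and its part in this was not tested.

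The peaks fell in 524 host genes, 508 of them protein-coding and 16 non-coding. A single far intronic peak was found in 308 hosts, and 216 had several, of which 100 had at least 3 and 23 at least 5. These 216 genes held 602 of the 889 peaks. Genes that lie within or across one another share peaks, as 55 peaks had more than 1 host. Of 884 pairs of neighbouring far intronic peaks, 27 had summits within 500 bp of each other. Each peak was counted, so the counts and densities of hosts include peaks that can overlap. For comparison, 12.1% of the 4333 genes with any sequence that meets the rule were hosts.

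The largest number was in sbb (also known as brakeless), which encodes a transcriptional corepressor, with 12 peaks at ranks 431 to 5134 in 46.8 kb of such sequence (12 to 13 in the replicates' own lists). A promoter peak of rank 240 also lay at sbb. Its far intronic summits at 14.58 and 14.78 kb, and at 49.51 and 49.71 kb, were closer together than the commonest peak width (416 bp). The 12 peaks of sbb need not be 12 separate regions. Similar close pairs lay in ftz-f1, shn, Eip75B and CG1677, which are described further on. kirre, a cell-surface immunoglobulin protein of muscle founder cells, had 10, in a gene of 394 kb, so that its density of 3.48 per 100 kb was far below the 25.7 of sbb. The replicates found 8, 10 and 12 in kirre.

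The next hosts include several transcription factors. ftz-f1, a nuclear receptor that acts in segmentation and in the ecdysone response, had 8, but none ranked above 2291, and 6 of these also lay in the non-coding lncRNA:CR45939. shn and ush, a zinc-finger cofactor of Dpp signalling and a GATA cofactor that Dpp controls, had 7 each, as did hth. Raf had 6 peaks at ranks 73, 613, 638, 1206, 1588 and 2766, all within the first 22.8% of the gene's length. Hr4 and Eip75B, both nuclear receptors, had 6 each, with ranks from 243 in Hr4 and 687 in Eip75B. The other hosts with 6 were apt, which encodes a transcription factor of trachea and heart, RhoGAP19D, CG1677 and CG43658. The 3 non-coding hosts with 6 or more, lncRNA:CR44357 with 8, lncRNA:CR44999 with 7 and lncRNA:CR45939 with 6, share peaks with CG1677, CG12535 and ftz-f1. In all 13 of the coding hosts with 6 or more, each replicate's own list held at least 4.

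**Figure D3:**
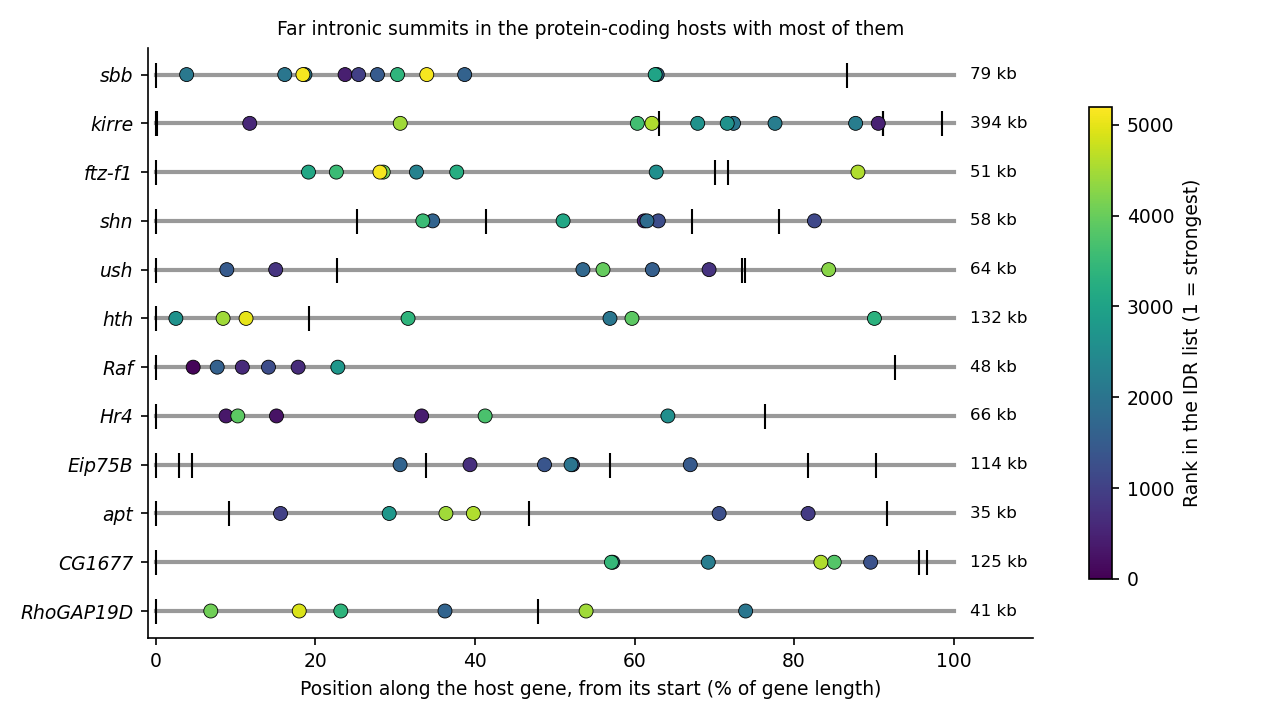
Far intronic summits (points, coloured by rank) along the 12 protein-coding hosts with most of them, as % of gene length from the gene's start, with black ticks at annotated start sites and the gene length at the right. The 6 summits in Raf gather near its start, while those in ush and hth spread over most of the gene. In ftz-f1 most lie between 9.699 and 19.12 kb from its start.

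Long introns alone did not make a host. Among the 161 coding genes with more than 50 kb of sequence that meets the rule, 74 (46.0%) were hosts. The largest without a peak, Myo81F with 1938 kb of such sequence and Pzl with 699 kb, had no far intronic entry in any of the 3 replicates' first entries, and none among the 30000 pooled entries. Whether reads could be aligned uniquely in these genes was not tested, so a lack of entries there need not mean a lack of binding. bru3 and Snap25, which encode an RNA-binding protein and a synaptic vesicle fusion protein, had 244 and 217 kb and no far intronic peak either. In the pooled list, background included, bru3 had 1 entry and Snap25 had 2.

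Hosts had a peak at their own promoter more often than other genes. Of the 508 coding hosts 240 (47.2%) had a peak within 500 bp of one of their start sites, against 1137 of 3708 (30.7%) coding genes with such sequence but no far intronic peak. Within genes with 5 to 20 kb of such sequence the shares were 50.3% and 24.6%, with 20 to 50 kb 46.2% and 20.8%, and above that 41.9% and 12.6%. The other coding hosts had none.

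In the Dpp, EGF receptor and hormone lists more than 50% of the genes with sequence that meets the rule were hosts. Of the 14 genes of the Dpp pathway list with sequence that meets the rule, 8 (57.1%) were hosts, with 112 peaks per Mb, against 12% and 21.6 peaks per Mb over all coding genes with such sequence. They were led by shn and ush with 7 peaks each and cv-2, an extracellular regulator of BMP ligands, with 3. sog, a BMP antagonist, had 3 as well, and dpp itself 1. List genes had more such sequence than the typical gene (a median of 18.9 kb against 1.64 kb), and both quantities vary with its amount. Over all coding genes 22.8% of those with 5 to 20 kb and 38% of those with 20 to 50 kb were hosts, at 32.8 and 25.2 peaks per Mb.

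The EGF receptor list had 10 hosts of 16 (62.5%) and 86.2 peaks per Mb. Raf had 6 peaks, S, the Star protein that escorts the ligand, 3, and pnt, an ETS activator at the end of the pathway, 2. Egfr, the receptor, and the repressors aop and cic also had 2 each. In the steroid hormone and nuclear receptor list 10 of 19 (52.6%) were hosts, with 56.1 peaks per Mb, led by ftz-f1, Hr4 and Eip75B. EcR, the ecdysone receptor, had 1 peak. When only peaks found in both remaining replicates were kept, the Dpp list kept 8 hosts without any of the 3 replicates, the EGF receptor list had 8 to 9, and the hormone list had 6 without replicate 1 and 7 without either of the others. With a distance of 5000 bp the EGF receptor list had 5 hosts.

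The Wnt list had 7 hosts of 20 (35%, 55.1 peaks per Mb), among them fz with 4 and fz2 with 3, both Frizzled receptors, and Wnt4 with 3. RNA-binding proteins had 11 of 26 but only 11.8 peaks per Mb, led by shep with 3, Rbfox1 and bol with 2 each. Muscle genes had 8 of 22 (36.4%), with kirre, Mef2 (4 peaks), the muscle transcription factor, and twi, the mesoderm factor, with 2. The pair-rule and segment polarity list had 4 of 11 (36.4%), with fz, nkd (2) and ptc (1). Glial genes had 4 of 12 (33.3%), led by pyd with 4 and pnt. For homeobox genes the count was 8 of 46 (17.4%, 24.5 peaks per Mb), with a density near that of all coding genes, where hth had 7, Antp 4 and NK7.1 3. The cytoskeleton and adhesion list had 8 of 31 (25.8%, 21.9 peaks per Mb, also near the density overall), with mew, an integrin, at 4 and scrib and sdt, regulators of epithelial polarity, at 2. Polycomb and Trithorax group genes had 3 of 18 (16.7%), which over their 55.7 kb of sequence that meets the rule came to 108 peaks per Mb. Of the 6 peaks trx held 4.

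Lists close to the known roles of Deadpan had few hosts in number, but they are short lists. The host shares of the neuroblast (21.4%), temporal (27.3%) and Notch (13.3%) lists were not below that of all coding genes with sequence that meets the rule. Their genes also had more such sequence at the median, with which this share varies. The Notch list had 25.1 and the temporal list 11.7 peaks per Mb, against 21.6 over all coding genes. The neuroblast list had 3 hosts of 14, brat with 2 peaks and grh and dlg1 with 1 each, at 21.5 peaks per Mb. From the Notch pathway list 2 of 15 were hosts, mam, the coactivator Mastermind, with 4 peaks and N, the receptor, with 1. The N peak, at rank 365, lay at ranks 516, 658 and 199 in replicates 1, 2 and 3, and the strongest mam peak, at rank 483, at 558, 681 and 373. Of the Hes and Hey list only cwo has sequence that meets the rule, and it had 1 peak. The temporal series of neuroblasts had 3 hosts of 11, grh, Eip93F and chinmo, with 1 peak each. Neuronal cell-surface genes had 9 of 42 (14.6 peaks per Mb), led by kirre, ed and Nrg, the latter pair with 4 peaks each. Ion channel and synapse genes had 5 of 34 and the lowest density of all lists, 6.80 peaks per Mb, with Ca-alpha1T at 2 peaks and Shab and mAChR-B at 1. No test of the lists against other genes was run, and counts this small moved easily. Without replicate 1 the homeobox list had 5 hosts and the temporal list 1, without replicate 2 the muscle list had 5, the glial list 2, the ion channel list 3 and the temporal list 1, and without replicate 3 they were 5 for homeobox, muscle and cytoskeleton genes and 2 for glial and ion channel genes.

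Far intronic summits were rich in A and T. Within 50 bp of the summit 65.7% of bases were A or T, against 57.9% in windows of the same size 400 bp further out and 60.0% over all sequence that meets the rule. The rise of 7.81 percentage points compared with 7.09 ± 0.468 (SD, n = 3) in the replicates' own far intronic entries. It was 5.52 points at promoter peaks, 5.70 at intergenic and 7.13 at intronic peaks nearer to start sites.

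Hexamers followed this composition. Each of the 2080 hexamers, with both strands merged, was counted in these windows, and the ratio divides the number of peaks that hold the hexamer at the summit alone by those that hold it in the flanks alone (0.5 added to each). By a two-sided exact binomial test with Benjamini-Hochberg adjustment, 194 hexamers (9.33%) were more and 260 (12.5%) less frequent at far intronic summits. The median ratio rose from 0.354 for hexamers without A or T to 0.835 with 3 such letters and 1.63 with 6. With only the peaks found in both remaining replicates, 5.77% of hexamers rose without replicate 3, and 7.21% and 6.73% fell without replicates 2 and 3. The 3 replicates' own entries share most of these peaks, so their ratios, given beside single hexamers here, show spread and are not independent evidence.

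ATTTAA stood at 27.0% of far intronic summits and in 13.4% of flanks (ratio 2.40, adjusted p = 1.68e-09, exact binomial test), with ratios of 2.34, 1.91 and 2.14 in replicates 1, 2 and 3. TTTAAA was found at 18% and 7.09% (ratio 3.00) and AATATT at 19.0% and 7.54% (ratio 2.74). ATCTTA had the largest ratio of the 10 leading hexamers, 3.64, with 9.90% at summits and 2.92% in flanks, while hexamers of its composition class had a median of 1.67. Of the hexamers that fell, AGCGGC was at 1.01% of summits and 5.40% of flanks (ratio 0.196, but not past the threshold with flanks at 800 bp, adjusted p = 0.0752, exact binomial test), and CCGCTC at 0.450% and 3.71% (ratio 0.134).

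A few hexamers rose against this trend. Of those with at most 3 A or T letters 18 were more frequent at the summits, CACTGA with its overlapping neighbours ACTGAG plus CTGAGA among them. ACAGTG, which reads CACTGT on the other strand, was at 8.89% of summits and 3.94% of flanks (ratio 2.35, adjusted p = 0.000676, exact binomial test) and CAGTGC at 7.20% and 2.92% (ratio 2.49). The ratios in the replicates were 2.87, 2.61 and 2.93 for ACAGTG and 2.91, 2.96 and 2.24 for CAGTGC.

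Sites of the kind that Hes proteins bind were rare. CACGTG occurred at 5 far intronic summits (0.562%) and in 4 flanks (0.450%), and its ratio of 1.22 was not past the threshold (adjusted p = 1.00, exact binomial test), with 1.13, 0.412 and 0.789 in the replicates. CACGCG was at 0.675% of summits and 1.80% of flanks (ratio 0.394, adjusted p = 0.143, exact test), but with windows of 100 bp it passed as less frequent (ratio 0.391, adjusted p = 0.0154, exact test). CAGCTG, an E-box of proneural activators, was less frequent at the summits, with 2.36% and 4.84% (ratio 0.494, adjusted p = 0.0403, exact test), but missed the threshold when any 1 replicate was left out (adjusted p of 0.0559 to 0.0917, exact tests) and with flanks at 800 bp (adjusted p = 0.225, exact test). Hexamers with as many A or T letters had a median ratio of 0.567 in the case of CACGTG and CAGCTG, and of 0.402 in that of CACGCG. The low ratios of CACGCG and CAGCTG were thus near those of their composition classes. The other fixed hexamers did not pass at the far intronic peaks. They were the E-box forms CATATG plus CAGGTG plus CACATG, the N-box forms CACGAG plus CACAAG plus CACTAG plus CACCAG, the site CAGGTA of the pioneer factor Zelda, and the repeat GAGAGA to which GAGA factor binds. AGAGAG, the same repeat read from its next base and not a fixed hexamer, was less frequent, at 3.26% of summits and 8.10% of flanks. Its ratio was 0.372 (adjusted p = 0.000310, exact binomial test), against a median of 0.835 for its composition class. In the own entries of single replicates CACATG passed as less frequent in replicate 1 (ratio 0.505, adjusted p = 0.0451, exact test) and CACCAG in replicate 3 (ratio 0.343, adjusted p = 0.0112, exact test). TATCGA, part of the site of the promoter factor DREF, had a ratio of 1.47 (adjusted p = 0.378, exact test).

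That last hexamer set the far intronic peaks apart from promoter peaks. TATCGA stood at 15.7% of promoter summits and 3.88% of their flanks, a ratio of 4.51, so that the far intronic ratio was 0.325 of it (adjusted p = 0.0332, Fisher's exact test over all hexamers). ATCGAT, at 12.7% of promoter but 1.80% of far intronic summits, had 0.169 of the promoter ratio (adjusted p = 0.000434, Fisher's exact test), and CGATAG 0.187 (adjusted p = 0.00666, Fisher's exact test). In all, 25 hexamers (1.20%) had a lower and 13 (0.625%) a higher ratio than at promoter peaks. CTGGCA was less and AGATTC more frequent in the far intronic class, AGATTC with 4.50% of summits and 1.91% of flanks, against 2.44% and 4.05% at promoter peaks. The AGATTC call was lost with windows of 100 bp, with flanks at 800 bp and without replicate 1 (adjusted p of 0.0782, 0.0959 and 0.0959, Fisher's exact test). With peaks found in both remaining replicates, the total of 38 fell to 4, 7 and 4 without replicates 1, 2 and 3. ATCGAT passed each time, like CTGGCA with its near match CTGCCA. By contrast CGATAG passed only without replicate 2, and TATCGA never did, at adjusted p of 0.273, 0.207 and 0.138 (Fisher's exact test). Its far intronic ratio was then 0.383, 0.355 and 0.284 of the promoter ratio, with fewer peaks tested.

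Against intergenic peaks and against intronic peaks nearer to start sites, no hexamer differed by Fisher's exact test after adjustment (0 of 2080 in both, with 132 and 87 at an unadjusted p under 0.05). These classes are smaller than the promoter class, and a p that misses the threshold does not show that they are alike.

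**Figure D4:**
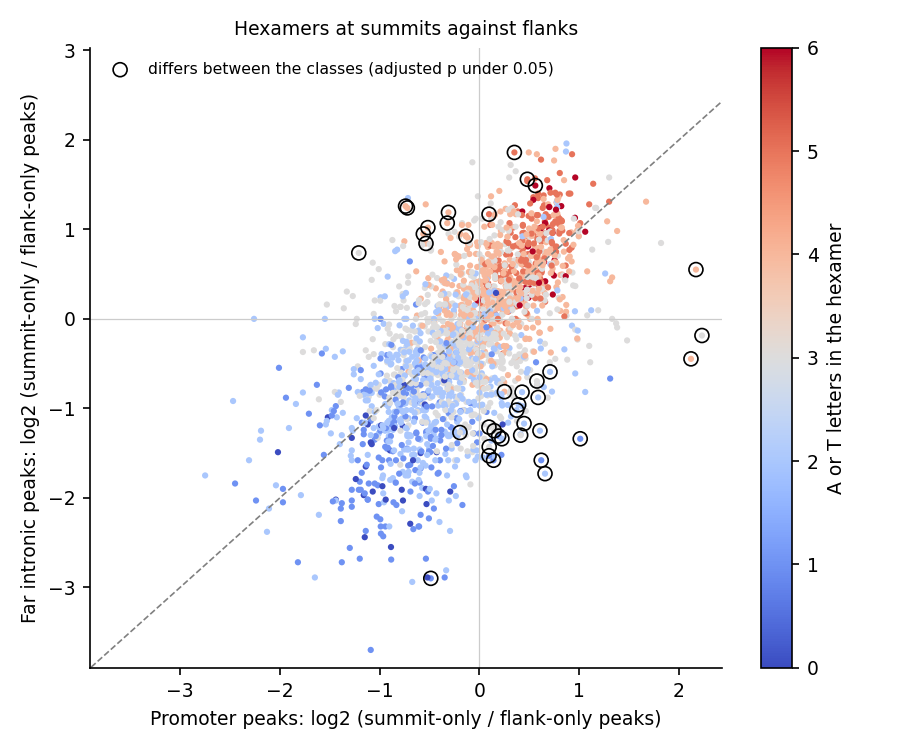
Each of 2080 hexamers by its log2 ratio of summit-only to flank-only peaks, at promoter peaks (horizontal) and far intronic peaks (vertical), coloured by its number of A or T letters. Hexamers that differ between the classes are ringed. Most follow the dashed line of equal ratios, and TATCGA (promoter ratio 4.51), ATCGAT (4.35) and CGATAG (4.70) lie far to the right of it.

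Longer words brought out the element shown above. The octamers were tested after the hexamers had been seen, within 100 bp of the summit. By the exact binomial test over 32896 octamers with Benjamini-Hochberg adjustment, 53 (0.161%) were more and 8 (0.0243%) less frequent at far intronic summits. With windows of 50 bp 1 octamer rose, and with flanks at 800 bp 21. Of the 53, 24 share at least 5 letters in a row with CACTGAGA on one strand. That octamer itself was within 100 bp of the summit in 58 peaks (6.52%) and in the flanks of 2 (0.225%), a ratio of 23.4 (adjusted p = 1.04e-10, exact binomial test). The replicates' own far intronic entries gave ratios of 12.1, 20.2 and 15. With peaks found in both remaining replicates, 19 to 20 octamers rose, and without replicates 1, 2 and 3 the ratio of CACTGAGA was 18.2, 19.0 and 17.8. Next came CTGAGAGA (4.39% and 0.112%) and TACACTGA (5.06% and 0.337%), which overlap it. CACAGTGG (4.72% and 0.450%) and CACTGTGC (5.17% and 0.675%) share CACTG or its complement. AGGGTATC does not, and was within 100 bp of 21 summits and in no flank. Repeats of CA and CAA, such as CACACACA (4.05% and 9%) and CAACAACA (2.02% and 7.42%), were less frequent.

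The octamer was placed to one side of the summit. Read along its own strand, 57 of the 60 octamers within 100 bp of a far intronic summit started before the summit and 3 after it, at a median offset of -67.5 bp. In the replicates' own lists 54 of 56, 48 of 52 and 51 of 54 started before it. Weaker entries, which the choice of the octamer had not used, showed the same side. They come from the same 3 libraries, and entries beside a far intronic summit were not removed, so they are not an independent set. Among 5901 far intronic entries of the pooled list that are not in the first 5164, 134 entries (2.27%) had it within 100 bp, 106 of the 134 octamers starting before the summit. Counted as in the octamer test, with copies wholly inside the windows, it was at 2.17% of these summits and in 0.491% of their flanks.

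Far intronic peaks were not the only carriers. The octamer was within 100 bp of the summit in 8.78% of intergenic peaks, 4.47% of intronic peaks nearer to start sites and 1.57% of promoter peaks, and it started before the summit in 49 of 54, 30 of 33 and 36 of 45 of these cases. Nor did every copy carry a peak. Of 1423 copies in sequence that meets the rule 58 (4.08%) lay within 100 bp of a far intronic summit, while such windows cover 0.428% of that sequence. Copies at far intronic peaks continued differently. Past the base that follows the octamer, an A stood at each of the next 3 bases in 88.3%, 86.7% and 85.0% of the 60 copies, against 59.3%, 58.8% and 53.9% of 1307 copies more than 1000 bp from any far intronic summit. A G stood directly after it in 56.7% and 33.1%. Hosts with such a copy include shn, ush, pnt, apt, Psc and kirre.

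**Figure D5:**
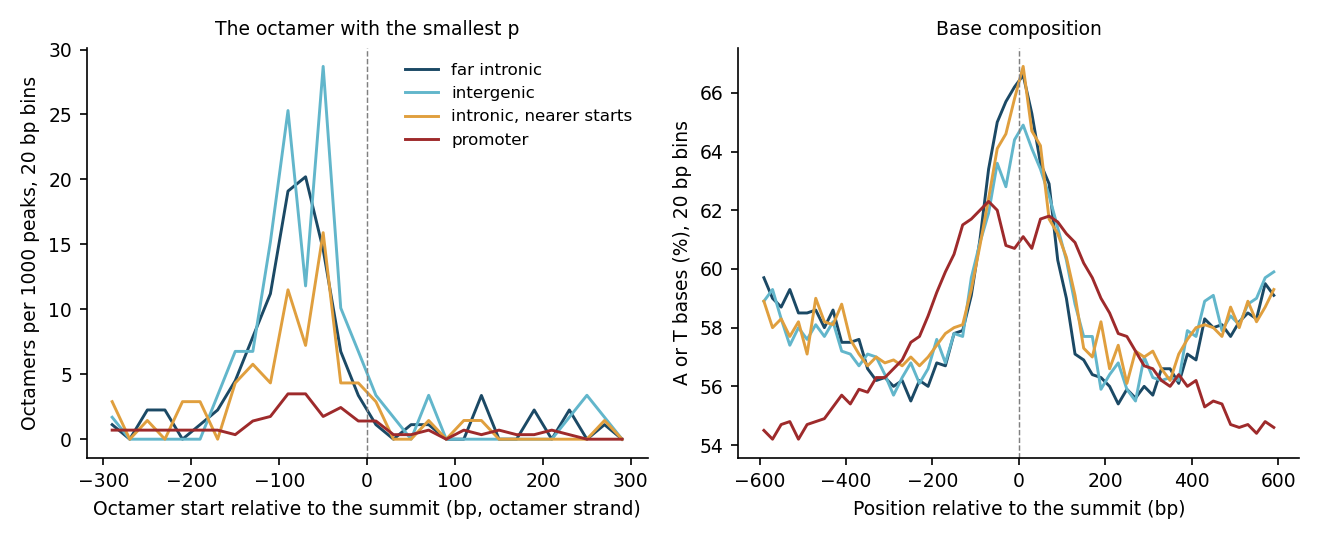
Left, start of the octamer CACTGAGA relative to the summit in bp, read on the octamer's strand, as octamers per 1000 peaks in 20 bp bins. Right, A or T bases (%) in 20 bp bins around the summit, for 4 peak classes in both panels. The octamer lies before the summit in the intronic and intergenic classes, and A and T content is higher around the summit than in the flanks in all 4.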

How the data were processed

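ChIP-seq of dpn-eGFP embryos was analysed in 3 biological replicates of 1 group. The file descriptions, deposited with the data, give a control alignment, lists of peaks with background for every replicate and for all replicates pooled, and an IDR-thresholded list. Aligner and caller are not given in the sources used here. In the dm6 lists the deposited signal (column 7) served for ranks alone. Column 9, the deposited −log10 of a q-value, has 1 distinct value in the IDR-thresholded list and was not used. Column 10, a deposited value of another unit, is the summit offset in bp. The lists carry no read counts, so depth is unknown.

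Start sites were all transcript starts of 18164 genes (Ensembl release 115, transposable elements left out), and sequence came from RefSeq release 6. Sequence that meets the rule (41.4 Mb) is every base whose summit would qualify. Hexamers that span the summit base were left out. Python 3.11.15, numpy 2.4.6, scipy 1.17.1 and pandas 2.3.3 were used. On simulated sequences the summit test recovered most planted hexamers, while the test against promoter peaks missed many of the weaker ones. That test had failed the limit set for a first simulation, which was replaced by one with stronger planted hexamers added. Of 410 listed gene symbols 408 matched. Named hosts were those of the 15 strongest peaks, the 15 with most peaks, and up to 3 per list. Other names in the text were chosen after their values were seen. Members, lists and tests were chosen with earlier results of these data known. Alternatives changed the distance, annotation, windows, matching, peak set and replicates used.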

Additional observations from a re-analysis of the deposited data

How the results depend on the processing

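Counts of far intronic peaks stayed within 1.5 times of 889 with a distance of 1000 bp, the NCBI annotation (890) and protein-coding bodies only (871), and ran from 621 to 658 without each replicate. With 5000 bp there were 444, and among the stronger peaks, up to the list's middle rank, 406. Mean recovery in the replicates was 79.6% with matching within 75 bp and 97.4% in the first 10000 entries. With 5000 bp, 108 hosts had several peaks (146 to 164 without each replicate), and the far intronic share was 2.60% of the first 500 entries, 9.97% of the class that ends at entry 5000 and 15.5% of the last 10000. By the exact binomial test, 3.89% of hexamers rose and 4.28% fell with flanks at 800 bp, 4.13% and 3.80% with 5000 bp, 3.80% and 3.12% with the strongest peak per host, and 4.42% and 4.86% among far intronic peaks up to their own median rank. In the own entries of replicates 1 and 2, 7.55% and 7.64% fell. Leaving out a replicate gave 5.77% to 7.36% that rose and 6.73% to 8.56% that fell. Fewer peaks entered with 5000 bp, the strongest per host, the median rank and a replicate left out, and for the other settings the cause was not tested. Hexamers that differed from promoter peaks numbered 103 with windows of 100 bp, 4 to 7 without each replicate, and 0 against the intergenic or the nearer intronic class (the latter 2 chosen after seeing the data). The rise in A and T was 5.96 points with windows of 100 bp and 5.36 with flanks at 800 bp. Octamers that rose, an analysis chosen after seeing the data, numbered 1 with windows of 50 bp, 21 with flanks at 800 bp and 19 to 20 without each replicate. Ratios that crossed to the other side of 1, none of them past the threshold there, were for CACGTG 0.647 (flanks at 800 bp), 0.600 (strongest peak per host) and 0.412 and 0.789 (own entries of replicates 2 and 3), for CATATG 1.28 (windows of 100 bp), 1.07 (up to the median rank) and 1.55, 1.12 and 1.08 (own entries of replicates 1, 2 and 3), for CAGGTG 0.873 (flanks at 800 bp), for CACTAG 0.867 (5000 bp), for CACCAG 1.36 (own entries of replicate 1), and for GAGAGA 1.05 (windows of 100 bp), 1.39 (flanks at 800 bp), 1.12 (5000 bp) and 1.09 (own entries of replicate 1). No paired analysis was possible because there is 1 group. Without read counts, no counting error could be given for a peak.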
